A study of Glycine max with 10 samples.

Results

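Aquaporins are the channels through which water crosses plant membranes, and the array carried 32 probe sets for 19 soybean genes of this family, among 6029 gene symbols with a probe set of their own. They were the probe sets with a single gene symbol that starts with PIP1, PIP2, TIP, NIP or SIP followed by a number, taken from 8677 probe sets with 1 symbol among 37593 on the array. PIP1 genes had 9 probe sets (6 genes), PIP2 genes 16 (8 genes), NIP genes 2 (2 genes) and SIP genes 5 (3 genes). No symbol of a TIP gene had a probe set. Transcripts were measured in whole developing seeds of the field-grown Glycine max variety Evans on 5 occasions, with 2 replicates each and 1 Affymetrix array for each replicate. The time points, in days after flowering (DAF), were 25, 30, 40, 45 and 50. For the third of these, the study's results text names an earlier day than the labels, while its methods give 40 DAF as the labels do. The labels are followed here. Each replicate was a pool of seeds from the pods of several plants. No treatment or genotype was compared, and every time point came from the same variety. The question was how water channel transcripts behave while the seeds pass from filling into drying.

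Plasma membrane intrinsic proteins (PIPs) carry water across the cell's outer membrane. PIP2 proteins are active water channels by themselves, and PIP1 proteins usually reach the plasma membrane by assembling with a PIP2 protein. Tonoplast intrinsic proteins (TIPs) lie in the membrane of the vacuole, where seeds store protein. Nodulin-26-like proteins (NIPs) also pass small uncharged solutes, and small basic intrinsic proteins (SIPs) have been placed in the endoplasmic reticulum.

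The array medians of the deposited signals were 303.8 to 325.2 up to 45 DAF and 220.8 and 222.8 at 50 DAF, so each array was centred on its median before any comparison. Signals below are given at a common array median of 309.9 and, apart from the sums of marker signals, are compared only within a probe set. The 2 arrays of 45 DAF correlated less (r = 0.88 over probe sets) than the pairs of the other time points (0.919 to 0.927), and replicate 2 of 45 DAF lay nearer to 50 DAF than replicate 1 for 28 of the 32 aquaporin probe sets and for 75.5% of all probe sets. In tissue that is a mixture, fewer cells of a type and less RNA per cell cannot be told apart. Of 3 genes taken as seed coat markers (SCB1, Ep and HPS, a seed surface protein), all 3 were lower at 50 than at 25 DAF. Among all probe sets 19.3% were lower. Whether the HPS transcript came from seed coat cells was not tested. Their summed signal was 79056 to 99221 on the arrays of 25 to 40 DAF, 80859 and 33458 at 45 DAF, and 13782 and 12396 at 50 DAF. SCB1 was already lower at 40 DAF, with signals of 18531 and 16010.0 at 25 DAF, 847 and 19958 at 30 DAF, and 126 and 96.2 at 40 DAF. Of the embryo storage markers (GY1, CG-1 and KTI3, 5 probe sets), only 1 CG-1 probe set was higher at 50 than at 25 DAF (log2 difference 2.72). The share among all probe sets was 24.6% higher. The summed signal of these markers was 146426 to 216257 over the 10 arrays. It was mostly that of GY1 and KTI3, so it says little about CG-1. The part of any seed coat decrease in the aquaporin results was not tested.

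From 25 to 50 DAF, most of the aquaporin probe sets that passed the test lost signal, and most of these were of PIP2 genes or SIP1-6. The largest log2 loss was that of PIP1-6 (-6.64). At an adjusted p under 0.05 with limma, 19 of 32 probe sets passed (43.9% of all probe sets did, and 51.6% of those with 1 symbol). Of these, 16 (11 genes) had less signal at 50 DAF and 3 (both of PIP1-10 and the one of SIP1-3) had more, against 19.3% lower and 24.6% higher among all probe sets. Among the 8677 probe sets with 1 symbol, from which the aquaporins were taken, the shares were 24.8% lower and 26.8% higher. The median log2 difference was -1.09 over the aquaporins and 0.17 over all probe sets. Both arrays of 50 DAF lay below both arrays of 25 DAF for 20 aquaporin probe sets and above them for 7, where 32.8% and 40.9% of all probe sets did so. Over the 5 time points, 13 of 32 aquaporin probe sets (10 genes) changed at an adjusted p under 0.01 in the F-test of limma, beside 24% of all probe sets and 31.7% of those with 1 symbol. This count was 0 in a model without the trend of variance with signal, 7 when replicate 1 of 50 DAF was left out and 6 when replicate 2 was left out. Of the 13, 9 had their highest mean at 25 DAF and their lowest at 50 DAF, 3 were highest at 40 DAF and lowest at 50 DAF, and PIP1-10 was highest at 50 DAF.

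**Figure D1:**
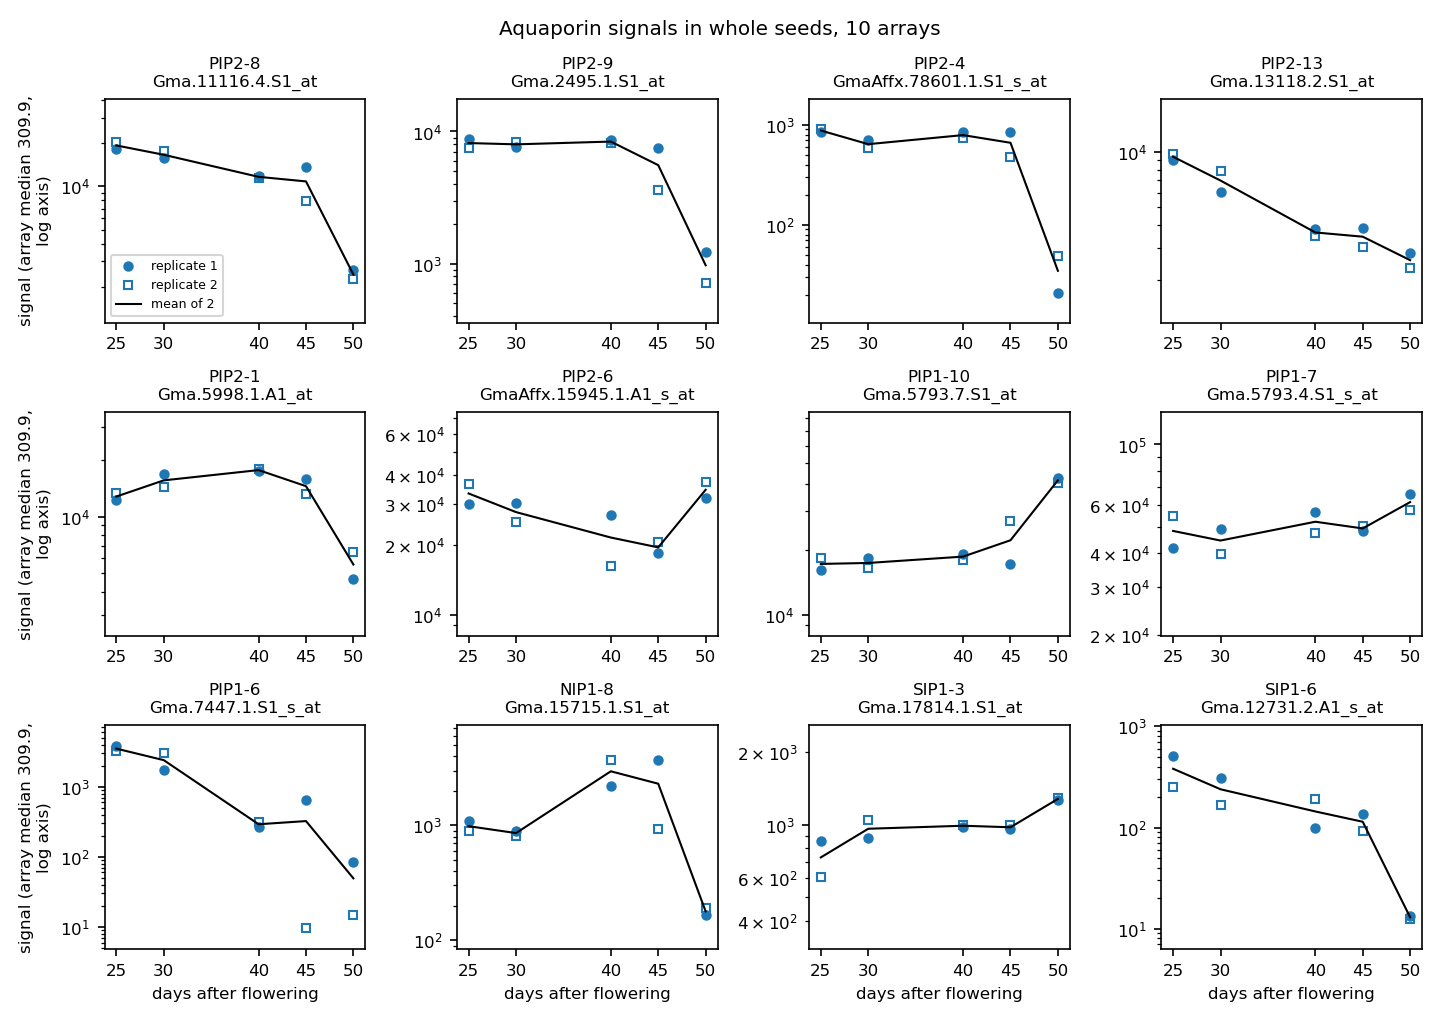
Signals of 12 aquaporin probe sets (y, log axis, at an array median of 309.9) by days after flowering (x). Circles are replicate 1, squares replicate 2 and lines the mean of the 2; PIP2-8, PIP2-9 and PIP2-4 sit low at 50 DAF, while PIP1-10 is highest there.

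The PIP2 calls for 50 against 25 DAF were all lower, while those in PIP1 and SIP went both ways. The shares among all probe sets were 19.3% lower and 24.6% higher, and among those with 1 symbol 24.8% and 26.8%. In PIP2, 10 of 16 probe sets had less signal at 50 than at 25 DAF and 0 had more, with a median log2 difference of -1.71 and a range of -4.78 to 0.06. In PIP1, 2 of 9 probe sets were higher (both of PIP1-10) and 2 lower (PIP1-1 and PIP1-6), near the shares among all probe sets. The PIP1 median was 0.36, the value of an uncalled PIP1-7 probe set. That value was -0.14 after quantile normalization and -0.10 without centring. PIP1-7 had 3 of the 9 probe sets and PIP1-10 had 2. In SIP, SIP1-3 was higher and the 3 probe sets of SIP1-6 were lower, and in NIP, NIP1-8 was lower and NIP2-2 was not called. These counts describe the members on the array, and no test of one subfamily against another was made.

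**Figure D2:**
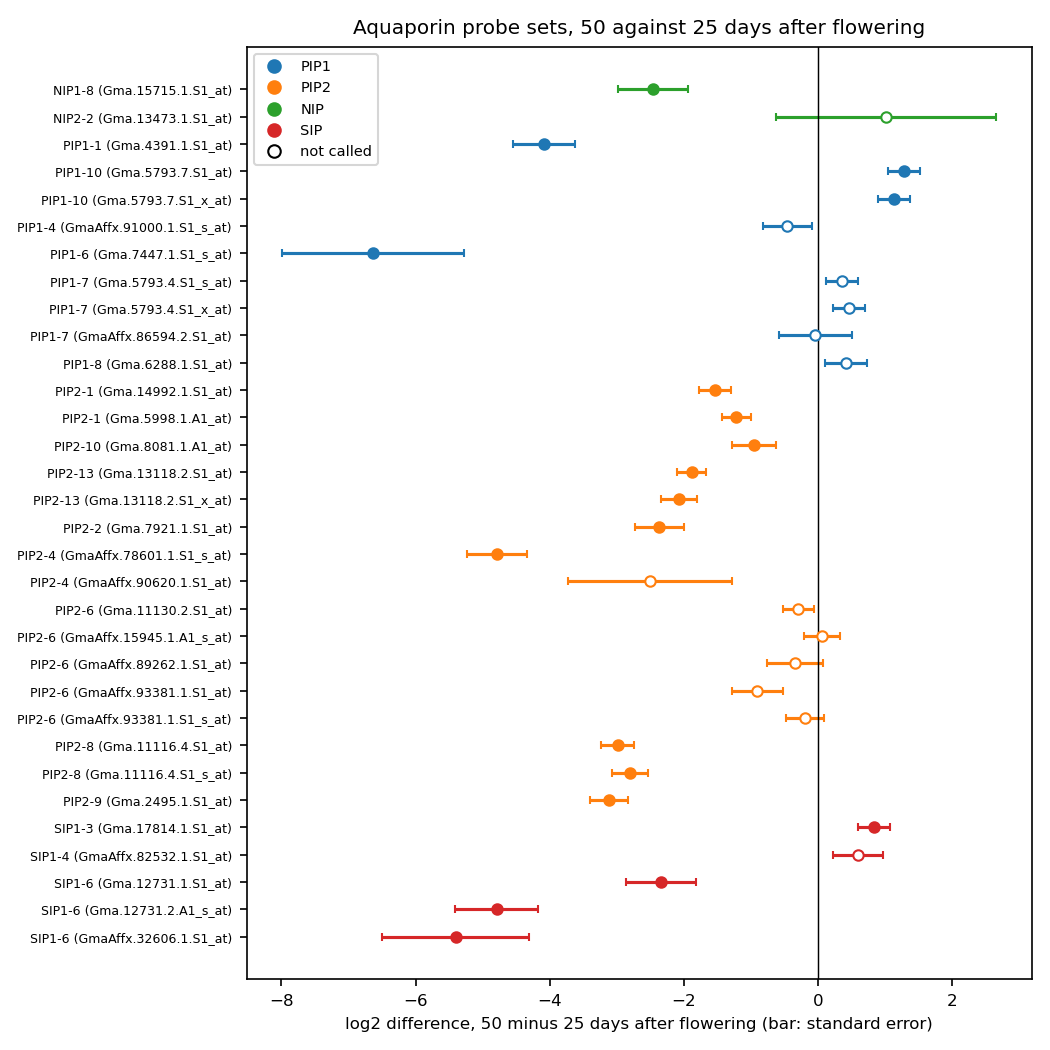
Log2 difference of each of the 32 aquaporin probe sets between 50 and 25 DAF (x), with bars of 1 standard error from the linear model. Filled points passed an adjusted p under 0.05 and open points did not; the 10 filled PIP2 points are all below 0.

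PIP2-8 gave the smallest adjusted p of the family for 50 against 25 DAF. The signal of its first probe set was 18212 and 20313 at 25 DAF, 15651 and 17532 at 30 DAF, 11799 and 11494 at 40 DAF, 13709.6 and 7939 at 45 DAF, and 2611 and 2250.4 at 50 DAF. Both arrays of 50 DAF were below all others, and the arrays of 40 and 45 DAF lay between these and the early ones. The log2 difference between 50 and 25 DAF was -2.99 ± 0.25 (SE), a 7.93-fold loss (limma, adjusted p = 6.6e-05). The second PIP2-8 probe set gave -2.80 ± 0.27. From 45 to 50 DAF alone the first probe set had a log2 difference of -2.11 (limma, adjusted p = 0.000686), whereas by 40 DAF it had covered 24.2% of its whole log2 change, with a 40 to 25 DAF difference that was not called.

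PIP2-9 stayed level until 40 DAF and was then lost. Its signal was 8820.2 and 7521 at 25 DAF, 7632 and 8344 at 30 DAF, 8557 and 8209.7 at 40 DAF, 7520.2 and 3596 at 45 DAF, and 1228 and 714 at 50 DAF. The 6 arrays up to 40 DAF overlapped, replicate 2 of 45 DAF was already lower, and both arrays of 50 DAF were lowest. The loss from 25 to 50 DAF was 8.70-fold (log2 difference -3.12 ± 0.29, limma, adjusted p = 9.1e-05), and the log2 difference from 45 to 50 DAF was -2.47 ± 0.29. In the gene order of the RefSeq assembly Glycine_max_v4.0, PIP2-9 is the neighbour of PIP2-12, which had no probe set by symbol.

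One of the PIP2-4 probe sets also lost its signal after 45 DAF. Its signals were 847 and 910.3 at 25 DAF, 700.0 and 583 at 30 DAF, 844 and 738 at 40 DAF, 850.1 and 475 at 45 DAF, and 21 and 48.3 at 50 DAF. The arrays of 50 DAF were far below the other 8, both under a signal of 50. The log2 difference from 25 to 50 DAF was -4.78 ± 0.45 (limma, adjusted p = 9.5e-05), and -3.24 when 50 was added to every signal before the logarithm. The other PIP2-4 probe set had signals of 1.97 to 96 over the 10 arrays and was not called in any comparison.

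PIP2-13 fell early instead. Its first probe set gave 9079 and 9785 at 25 DAF, 6063 and 7912 at 30 DAF, 3781 and 3478 at 40 DAF, 3843 and 3038 at 45 DAF, and 2789.6 and 2327 at 50 DAF. Both arrays of 40 DAF were below all arrays of 25 and 30 DAF. The log2 difference was -1.38 ± 0.21 from 25 to 40 DAF (limma, adjusted p = 0.0163) and -1.89 ± 0.21 from 25 to 50 DAF (adjusted p = 0.000193). The second probe set gave -1.30 and -2.08. By 40 DAF, 73% and 62.7% of the whole log2 change had taken place, and the further difference between 40 and 50 DAF was not called at either probe set. Among the 32 probe sets, the 2 of PIP2-13 were the only ones called between 25 and 40 DAF, where 3.09% of all probe sets were (1.55% higher and 1.53% lower).

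PIP2-1, PIP2-2 and PIP2-10 were the other PIP2 genes that were lower at 50 DAF. One PIP2-1 probe set was 12259 and 13358 at 25 DAF, 16827 and 14404 at 30 DAF, 17408 and 18007 at 40 DAF, 15909 and 13178 at 45 DAF, and 4651 and 6493 at 50 DAF. It was highest at 40 DAF and lowest at 50 DAF, with a log2 difference of -1.22 ± 0.22 from 25 to 50 DAF (limma, adjusted p = 0.00182) and -1.69 ± 0.22 from 40 to 50 DAF. The second PIP2-1 probe set went from 2539 and 3671 to 1072 and 1027 (-1.54 ± 0.24). PIP2-2 was 454 to 821 on the arrays of 25 to 45 DAF and 221 and 101 at 50 DAF, a log2 difference of -2.37 ± 0.37 (limma, adjusted p = 0.000834). PIP2-10, the neighbour of PIP2-11 in that gene order, was 502 and 382 at 25 DAF, 667 and 677 at 40 DAF, and 298 and 172 at 50 DAF. Its log2 difference from 25 to 50 DAF was -0.95 ± 0.33 (limma, adjusted p = 0.0399), a call that was lost without the replicate number in the model (adjusted p = 0.0875) and when single arrays were left out.

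PIP2-6 was the PIP2 gene with no call between 25 and 50 DAF. Its 5 probe sets had log2 differences of -0.91 to 0.06. The signal of one of them was 29799 and 36607 at 25 DAF, 30168 and 25055 at 30 DAF, 26707 and 16234 at 40 DAF, 18369 and 20578 at 45 DAF, and 31758 and 37119 at 50 DAF. The arrays of 45 DAF were below those of 25, 30 and 50 DAF, and the arrays of 25 and 50 DAF overlapped. It then rose to 50 DAF with a log2 difference of 0.82 ± 0.27 (limma, adjusted p = 0.0455). A second probe set, at 8735 and 9699 at 25 DAF, 5171 and 3743 at 45 DAF and 6797 and 8249.8 at 50 DAF, also rose from 45 to 50 DAF (0.77 ± 0.23, adjusted p = 0.033). The first of these calls was lost without replicate 1 of 45 DAF (adjusted p = 0.177) and the second without replicate 2 (adjusted p = 0.134). For this second probe set the scaling decided the outcome of 50 against 25 DAF, with a log2 difference of -0.30 with centred arrays and -0.84 (adjusted p = 0.0219) after quantile normalization. A further PIP2-6 probe set, at -0.91, was called lower without centring (-1.37, adjusted p = 0.0176) and in a model without the variance trend (adjusted p = 0.0386).

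PIP1-10 rose, and it was the only PIP1 gene with a higher call at 50 than at 25 DAF. The signal of its first probe set was 16075 and 18287 at 25 DAF, 18306 and 16409.6 at 30 DAF, 19124 and 18000.5 at 40 DAF, 17093 and 27028 at 45 DAF, and 42683 and 40416 at 50 DAF. The arrays up to 40 DAF overlapped, replicate 2 of 45 DAF was above them, and both arrays of 50 DAF were highest. The log2 difference from 25 to 50 DAF was 1.28 ± 0.24, a 2.42-fold gain (limma, adjusted p = 0.00213), of which 8.9% was reached by 40 DAF. It was 0.81 after quantile normalization and 0.82 without centring, and passed the test in both. From 45 to 50 DAF it was 0.95 ± 0.24 (adjusted p = 0.0149), a call that was lost without replicate 1 of 45 DAF (0.60, adjusted p = 0.0894). The second PIP1-10 probe set, which can match several transcripts, gave 1.13 ± 0.23 between 25 and 50 DAF (0.67 under either of these scalings), and its call between 45 and 50 DAF was also lost without that array (adjusted p = 0.153).

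PIP1-7 was not called in any comparison at any of its 3 probe sets. At the first of these the signals were 41855 and 54588 at 25 DAF, 49136 and 39804 at 30 DAF, 56721 and 47511 at 40 DAF, 48347 and 50152 at 45 DAF, and 65689 and 57331 at 50 DAF. The arrays of 50 DAF were the highest, but the log2 difference of 0.36 ± 0.24 from 25 DAF missed the threshold (adjusted p = 0.256) and changed sign to -0.14 under quantile normalization and -0.10 without centring. The third probe set was 75.2 to 263 over all arrays. PIP1-8 was 221 to 419.8 and was not called, with a log2 difference of 0.42 ± 0.32 that was -0.04 without centring.

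PIP1-1 and PIP1-6 lost nearly all of their signal. PIP1-1 was 438 and 416 at 25 DAF, 446 and 392 at 30 DAF, 389 and 366 at 40 DAF, 296 and 176 at 45 DAF, and 41.9 and 15.2 at 50 DAF. Its arrays of 45 DAF lay below the earlier ones, and those of 50 DAF were lowest, with a log2 difference from 25 DAF of -4.08 ± 0.46 (limma, adjusted p = 0.000191), or -2.37 with 50 added to the signal. PIP1-6 had signals of 3752 and 3236 at 25 DAF, 1727 and 3059 at 30 DAF, 268 and 315 at 40 DAF, 637 and 9.67 at 45 DAF, and 84.1 and 14.6 at 50 DAF. Both arrays of 40 DAF were below all arrays of 25 and 30 DAF, and the arrays of 45 DAF were far apart. The log2 difference from 25 to 40 DAF, -3.58 ± 1.35, did not pass (limma, adjusted p = 0.191). The log2 difference from 25 to 50 DAF was -6.64 ± 1.35 (limma, adjusted p = 0.00353), or -5.03 with 50 added. PIP1-4 was 3184 and 4050.0 at 25 DAF, 1582 and 969 at 45 DAF, and 2461 and 2770.1 at 50 DAF, and was not called in any comparison (log2 difference from 45 to 50 DAF 1.08 ± 0.37, adjusted p = 0.0534).

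NIP1-8 had its highest mean at 40 DAF and its lowest at 50 DAF. Its signals were 1081 and 886 at 25 DAF, 902 and 812 at 30 DAF, 2199.8 and 3713 at 40 DAF, 3673 and 936 at 45 DAF, and 168 and 189 at 50 DAF. Both arrays of 40 DAF were above the 4 early arrays, 1 array of 45 DAF was within their range and the other within that of the early arrays, and 50 DAF was lowest. The log2 difference was -4.00 ± 0.52 from 40 to 50 DAF (limma, adjusted p = 0.00063), -3.38 from 45 to 50 DAF and -2.46 from 25 to 50 DAF. The earlier difference from 30 to 40 DAF was 1.74 ± 0.52 and did not pass (adjusted p = 0.155). NIP2-2 was near the floor, with 2.39 to 92.9 on the 10 arrays, and was not called.

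The SIP genes moved in both directions. SIP1-3 was 855 and 609 at 25 DAF, 881 and 1044 at 30 DAF, 979.7 and 1001 at 40 DAF, 957 and 996 at 45 DAF, and 1267 and 1294 at 50 DAF. Both arrays of 25 DAF were lowest and both of 50 DAF highest, with a log2 difference of 0.83 ± 0.24 (limma, adjusted p = 0.0199). That call was lost under quantile normalization (0.42, adjusted p = 0.194) and without centring (0.37, adjusted p = 0.243). The 3 SIP1-6 probe sets were lower at 50 than at 25 DAF, with log2 differences of -2.34 ± 0.52, -4.79 ± 0.62 and -5.40 ± 1.10. At the second of these the signals were 512 and 250.2 at 25 DAF, 312 and 166 at 30 DAF, 98 and 190.3 at 40 DAF, 136 and 92 at 45 DAF, and 13.3 and 12.6 at 50 DAF, so the arrays of 50 DAF lay below all others. With 50 added to every signal the 3 log2 differences from 25 to 50 DAF were -1.52, -2.39 and -2.73. From 25 to 40 DAF, without this addition, they were -1.48 ± 0.52, -1.39 ± 0.62 and -3.56 ± 1.10 in the same order, and none was called. SIP1-4 was 156 to 314 over the 10 arrays and was not called.

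**Figure D3:**
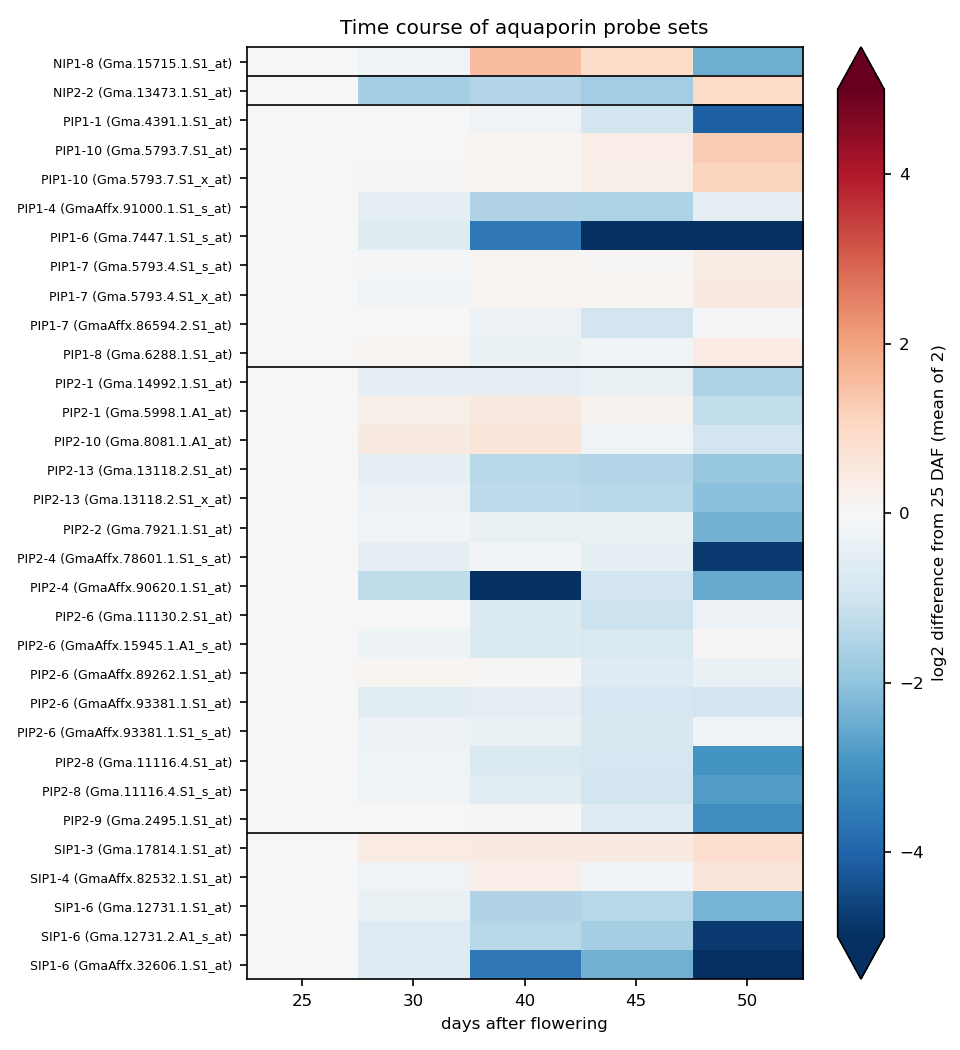
Log2 difference of each aquaporin probe set from its level at 25 DAF (colour, fitted from 2 arrays per time point, saturated beyond 5 in either direction) at each number of days after flowering (x), with lines between the subfamilies. The blue at 50 DAF in PIP1-1, PIP2-4, PIP2-8, PIP2-9 and SIP1-6 stands beside the earlier blue of PIP2-13 and the red of PIP1-10 at 50 DAF.

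For the 32 probe sets found by symbol, the calls between neighbouring time points lay in the last interval. Between 25 and 30 DAF, 0 of 32 probe sets were called by limma (0.0106% of all probe sets), and 0 had an unadjusted p under 0.05 in this fit. Between 30 and 40 DAF, 0 were called (1.16% of all, 0.678% higher and 0.481% lower), with 7 at an unadjusted p under 0.05, and between 40 and 45 DAF 0 were called (0% of all), with 3 at an unadjusted p under 0.05. Between 45 and 50 DAF, 14 were called (31.2% of all), 10 lower and 4 higher, against 12.6% lower and 18.6% higher among all probe sets, and without replicate 2 of 50 DAF 9 were called. The 10 lower calls were PIP2-8 and PIP2-1 with both probe sets each, PIP2-2, PIP2-4, PIP2-9, PIP1-1, NIP1-8 and SIP1-6, and the 4 higher calls were both PIP1-10 probe sets and the 2 of PIP2-6. Replicate 2 of 45 DAF was nearer to 50 DAF for all 13 aquaporin probe sets called over time, beside 88.4% of all probe sets called over time.

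The calls between 30 and 40 DAF changed when the arrays of 45 DAF, the pair that correlated least, were left out. Without both of them, an alternative chosen after seeing the data, 4 of the 32 probe sets were called between 30 and 40 DAF, as were 6.53% of all probe sets in that fit. NIP1-8 was then higher at 40 DAF (log2 difference 1.74, limma, adjusted p = 0.00605), PIP1-6 fell by 2.98 (adjusted p = 0.0221), and the PIP2-13 probe sets fell by 0.93 (adjusted p = 0.0176) and 1.02 (adjusted p = 0.0381). Leaving out either single array of 45 DAF gave the same 4 calls. Without replicate 1 of 45 DAF, 2 probe sets (NIP1-8 and PIP1-6) passed between 40 and 45 DAF, as did 3.18% of all probe sets. This rests on the lone remaining array (936 and 9.67), which was assumed to vary like the other groups, while the array left out read 3673 for NIP1-8, within the range of 40 DAF, and 637 for PIP1-6, above it. Comparing 50 with 40 DAF in place of 45 DAF gave 13 calls (36.7% of all), 11 lower and 2 higher (both PIP1-10), against 15.2% lower and 21.5% higher among all probe sets.

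Of the 19 genes, 8 had more than 1 probe set, and probe sets of PIP1-7 and of PIP2-6 lay on both sides of 0 between 25 and 50 DAF. Of the 32 probe sets, 11 are of the kinds designed to match several transcripts, so closely related PIP genes may share their signal. When each gene was represented by 1 probe set, 11 of 19 genes were lower and 2 higher at 50 than at 25 DAF. The shares were 19.3% lower and 24.6% higher among all probe sets, and 24.8% and 26.8% among those with 1 symbol. In all, 11 probe sets were not called in any comparison: NIP2-2, PIP1-4, PIP1-8, SIP1-4, the 3 of PIP1-7, 1 of PIP2-4 and 3 of PIP2-6. Only part of the family could be seen, since RefSeq names 10 PIP1, 14 PIP2, 15 NIP and 7 SIP genes by symbol, of which 6, 8, 2 and 3 had a probe set here.

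Aquaporins under other names were counted separately. By RefSeq synonym, 12 probe sets of 3 genes belong to tonoplast aquaporins and 1 to nodulin-26 (N-26). Of these 13, 8 lost and 2 gained signal between 25 and 50 DAF, with a median log2 difference of -1.54. Among all probe sets, 19.3% were lower and 24.6% higher. SPCP1, which carries TIP synonyms, had 6 probe sets, and the signals of one were 19729.8 and 20576 at 25 DAF, 13892 and 16931 at 30 DAF, 3412 and 3085 at 40 DAF, 3332 and 3575 at 45 DAF, and 3103 and 3243 at 50 DAF. The arrays from 40 DAF on were all far below the 4 early ones and close to each other. From 30 to 40 DAF the log2 difference was -2.24 (limma, adjusted p = 0.00228), and a second SPCP1 probe set gave -2.29 (adjusted p = 0.00743). The other 4 were not called in that interval, among them 2 at -0.88 (adjusted p = 0.124) and -0.86 (adjusted p = 0.0962). The remaining 2, of low signal, were at -3.48 (adjusted p = 0.137) and 0.19 (adjusted p = 0.978). Between 25 and 40 DAF, 4 of the 6 were lower (1.53% of all probe sets were), with log2 differences of -2.63, -2.79, -1.11 and -1.06. LOC547794, also a gene with a TIP synonym, went the other way, from 58.5 and 133 at 25 DAF to 562 and 613 at 50 DAF (log2 difference 2.73 ± 0.53, adjusted p = 0.00275), with 149.6 and 601 at 45 DAF. LOC100306092 had 2 of its 3 probe sets lower at 50 DAF, with log2 differences of -1.33 and -1.54. N-26 was 355 and 224 at 25 DAF and 121 and 3.04 at 50 DAF (log2 difference -3.88 ± 1.24, adjusted p = 0.0306). With 50 added to every signal the difference of N-26 was -1.58 ± 0.56 (adjusted p = 0.0429).

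**Figure D4:**
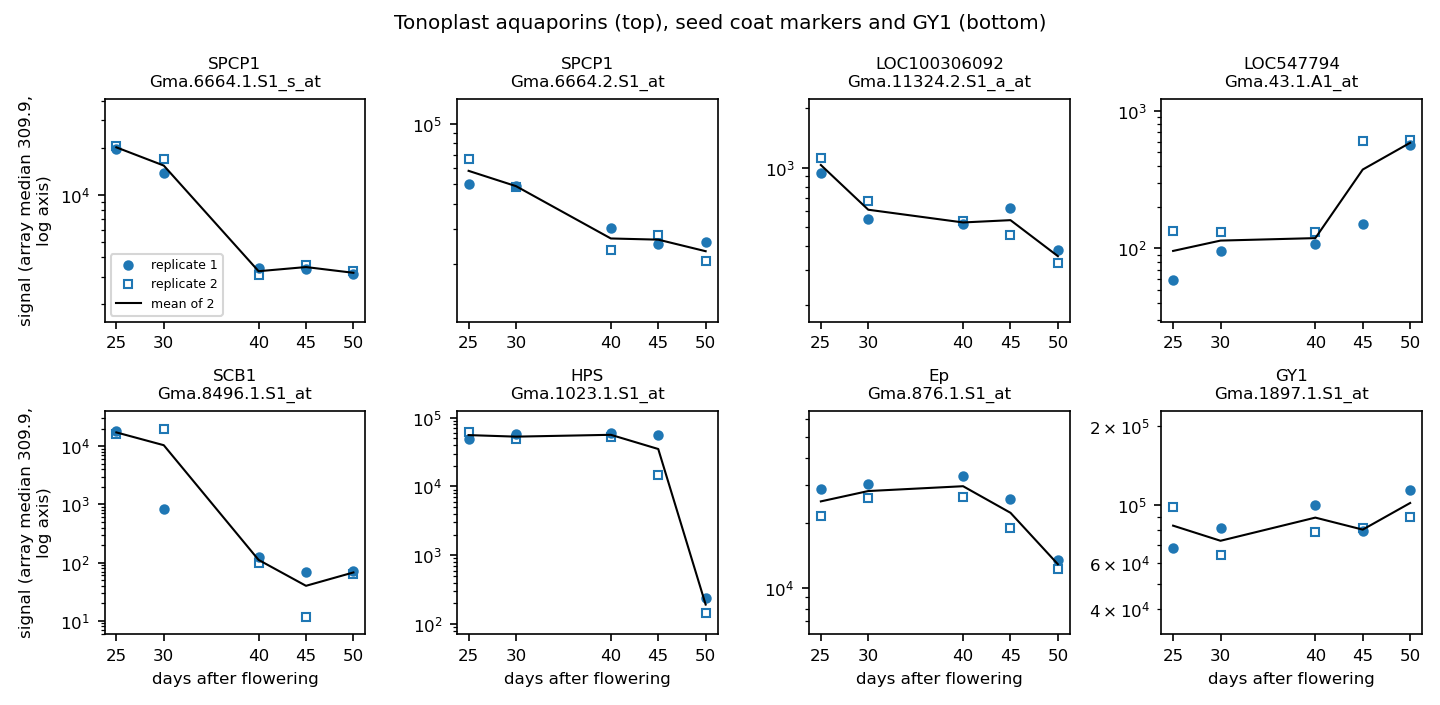
Signals (y, log axis, at an array median of 309.9) by days after flowering (x) of 4 probe sets of tonoplast aquaporins (top) and of 3 seed coat markers and GY1 (bottom). Circles are replicate 1, squares replicate 2 and lines the mean; SPCP1 is down by 40 DAF, HPS drops between 45 and 50 DAF, and GY1 stays within 64394 to 113555.

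Other membrane and drying-related genes were set beside the aquaporins. Among all probe sets, 24.6% were higher and 19.3% lower at 50 than at 25 DAF. Of 15 sugar transporter probe sets, 4 gained and 5 lost signal between 25 and 50 DAF (median log2 difference 0.14). SWEET24, a sugar exporter of the SWEET family, fell by 3.17 on the log2 scale, SWEET13 fell by 3.13 and SWEET31 rose by 4.64. Of 7 ion channel and exchanger probe sets (median -0.54), 2 were lower, both of NHX1, a vacuolar sodium and proton exchanger, with log2 differences of -1.14 and -1.56. Of 39 probe sets of late embryogenesis abundant and other seed maturation proteins, 36 were higher and 2 lower (median 3.59). Already at 40 DAF, 9 were higher than at 30 DAF, beside 0.678% of all probe sets. SLE2 rose by 10.17, the most of the 39, and PM13 by 6.50 on the log2 scale from 25 to 50 DAF. The 39 ranged from -1.13 to 10.17, and the 1.28 of PIP1-10 lay within that range.

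Other genes followed single aquaporins closely over the 10 arrays, as a description of arrays that share time points. Among 1674 probe sets with an informative symbol, the first PIP1-10 probe set was most like CCDA, PM29 and LUXC (Pearson r = 0.991 for each). The first PIP2-8 probe set was most like MYB172 (0.995), CHI3A1 (0.993) and WRI1B (0.992), and the second most like FRD3a (0.995). PIP2-9 and PIP1-1 were among the 3 most like each other (r = 0.991). NIP1-8 was most like NHX1 (0.984), SSH2 (0.981) and ITPK3 (0.967), PIP2-4 was most like GBSSIa (0.995), and PIP1-1 was most like IFR1 (0.994). PIP2-13 was most like GSTL3 (0.994) at its first probe set and PDIM-1 (0.98) at its second.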

How the data were processed

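Transcript levels were measured on the Affymetrix Soybean Genome Array in 10 samples, 2 per time point. The authors deposited linear signal intensity values made with MAS (5.0), 1 value per probe set, and no genome build is named for them in the sources used here. Signals were log2 transformed, centred on each array's median, and fitted with limma (3.58.1, R 4.3.3) with effects of time point and of replicate number, and a variance trend (residual df 4, prior df 5.08). The centring and the model terms follow the study's methods. The moderated variances, their trend and the Benjamini-Hochberg adjustment do not, since the study ran an ordinary F-test with q-values. Benjamini-Hochberg adjustment ran over all 37593 probe sets, with an adjusted p under 0.01 for the F-test and under 0.05 for contrasts. The code was tested on simulated data.

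Symbols came from the platform annotation (8677 probe sets with 1 symbol, 370 with several, 28546 with none), and all 32 members were found in RefSeq (Glycine_max_v4.0). Every aquaporin probe set was described. For those called over time, the 3 best-correlated probe sets of other genes with an informative symbol were named. In other lists up to 3 were named by lowest adjusted F-test p, and SPCP1, LOC547794, LOC100306092, N-26 and the markers were singled out after their values were seen. Members and lists were chosen with earlier results of these data known. Symbol lists for vacuolar and plasma membrane proton pumps found no probe set, and the embryo marker GY4 was not found. Replicates are separate pools, and their number limits the precision. Same-numbered arrays did not deviate together (r of -0.03 to 0.03 over 10 pairs). Alternatives covered the block, scaling, variance trend, pseudocount, filter, thresholds, the methods' F-test, a single probe set for each gene, and omission of each array in turn.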

Additional observations from a re-analysis of the deposited data

How the results depend on the processing

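The counts for 50 against 25 DAF stayed within 1.5 times of 3 higher and 16 lower under all alternatives run (leave-one-out 2 to 3 and 14 to 16). The count over time was the least stable: 13 became 0 without the variance trend, 8 with 1 probe set per gene (of 19), 20 at an adjusted p under 0.05, and 0 with Benjamini-Hochberg or 1 with Storey q-values in the methods' F-test, which called 0 and 2132 of all probe sets. Leaving out single arrays gave 6 to 18 over time (7 without 50 DAF replicate 1 and 6 without replicate 2), 0 to 0 for 30 against 25 DAF, 0 to 4 for 40 against 30 DAF (4 without either array of 45 DAF, and 4 without both), 0 to 2 for 45 against 40 DAF (2 without 45 DAF replicate 1) and 9 to 15 for 50 against 45 DAF (9 without 50 DAF replicate 2). The last count was 9 with 1 probe set per gene and 9 without probe sets matching several transcripts, an alternative chosen after seeing the data. Without the replicate block, 40 against 30 DAF had 1 call, and the counts were 14 over time, 15 lower and 3 higher at 50 than at 25 DAF; the numbers share no known pairing. The cause of these shifts was not tested, except that fewer probe sets were counted with 1 per gene or by type.

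Differences between 50 and 25 DAF that changed sign were all uncalled. Under quantile normalization they were PIP1-7 (-0.14 and, at another probe set, 0.11) and PIP2-6 (-0.48). Without centring they were PIP1-7 (-0.10 and -5e-04), PIP1-8 (-0.042) and PIP2-6 (-0.40), and with 50 added to the signal PIP2-6 (-0.018). With single arrays left out, NIP2-2 ranged from -1.09 (without 25 DAF replicate 1) to 3.11, PIP1-7 from -0.67 to 0.59 (without 25 DAF replicate 1) and PIP2-6 from -0.17 (without 25 DAF replicate 1; -0.12 without 50 DAF replicate 2) to 0.28. SIP1-6 lost a call at 1 probe set without 25 DAF replicate 1 (adjusted p = 0.0568) and at another without 25 DAF replicate 2 (adjusted p = 0.0528). The median of all probe sets between 50 and 25 DAF was 0.17 with centred arrays, 0.04 after quantile normalization and -0.29 as deposited. Lower and higher calls were 17 and 2 after quantile normalization and 18 and 2 as deposited. A filter at the median signal kept 21 members. PIP1-1, PIP1-6, PIP2-4 and SIP1-6 had signals under 50 on 1 or both arrays of 50 DAF, and their log2 differences were smaller with 50 added.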
